A study of Mus musculus with 12 samples.

Results

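Matrix metalloproteinases and their tissue inhibitors were examined in ATII cells, the surfactant-producing cells of the lung alveolus, with and without bleomycin injury and deletion of p300. The 9 genes were taken by symbol from the count files: the metalloproteinases Mmp2, Mmp14, Mmp8, Mmp9, Mmp12 and Mmp19 and the inhibitors Timp1, Timp2 and Timp3, out of 23238 symbols. All 9 were present in the files and all 9 passed the filter on low counts, Timp1 only through the BLM libraries.

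RNA was sequenced from 12 mice, 1 library per mouse and 3 mice per group. The Con and BLM mice carried floxed p300 alleles with Spc-CreERT2 (Spc-p300 f/f), and the KO and KOBLM mice were those in which tamoxifen had deleted exon 9 of p300 in cells that use the Spc promoter (Spc-p300 d/d). The Con and KO mice received PBS, and the BLM and KOBLM mice received bleomycin at 4 mg/kg through the trachea, a drug that injures the lung and is followed by fibrosis. The protocol in the labels gives tamoxifen at 10 mg/kg to mice aged 8 weeks without naming a group, other descriptions of the control mice differ (wild type, or vehicle in place of tamoxifen), and the time between bleomycin and cell collection was not given for these samples. Cells were collected by sorting for CD74 and EpCAM, and the libraries were of a kind read from the 3′ end of transcripts, which keeps counts from growing with transcript length.

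Metalloproteinases are zinc-dependent enzymes that cut collagen, elastin and other matrix proteins, and are made as inactive precursors. TIMPs bind to and block their active sites. In the lung, macrophages, neutrophils, fibroblasts and epithelium each make different members, and the balance of enzyme and inhibitor is followed in fibrosis because it bears on how much matrix is retained. The comparisons asked whether these genes differed with bleomycin in mice with intact p300, and whether they differed when p300 had been deleted from ATII cells.

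Levels are given as CPM, the count relative to the library total, scaled by the trimmed mean of M values (TMM). Libraries held 7005005 to 11153154 counts, and a limit of 3 counts, which covers counting error only, came to 0.269 to 0.428 CPM. A gene was called where edgeR's quasi-likelihood test gave a change of more than 1.5-fold with a p under 0.05 before adjustment, the threshold of the study. After Benjamini-Hochberg adjustment over the 13054 genes tested, edgeR left 0 genes under 0.05 in any comparison, against 114 with a fold over 1.5 by DESeq2 in BLM against Con, 80 in KO against Con, 78 in KOBLM against BLM and 57 in KOBLM against KO, so each call below is one at the unadjusted level.

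The libraries carried RNA of other cells, and 1 library stood apart. Summed CPM over 16 macrophage markers was 11290 to 38900 in 11 libraries, above the 770.8 to 3745 CPM of 12 ATII markers in all 12, and Sftpc, the defining ATII transcript, ranged from 0.604 to 617 CPM. The largest of the 12 ATII markers in every library was Cd74, an antigen of the sort, at 443 to 2490 CPM. BLM replicate 3 had 6847 genes with a count, 1047 CPM of macrophage markers and 2021 CPM of pluripotency genes, against at most 33.2 CPM of the last in any other library. It had no count of Mmp8, Mmp9 or Mmp19, and values without it are given beside those genes, Mmp12, Timp1, Cd44 and Adamts2. In such bulk samples, fewer cells of a type and less RNA per cell cannot be told apart. Ep300 itself was at 109 CPM in Con and 142.5 CPM in KO (mean, n = 3; edgeR p = 0.579, exact permutation p = 0.5), and since 3′ reads lie outside exon 9, this level does not check the deletion.

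The stretches of DNA printed here, upstream of transcription starts, are shown because they belong to Mmp12 and Timp1, the members called higher with bleomycin, and to Mmp8, which holds a match to a motif of C/EBP, a factor family that the study examined. They are the 250 bases before the RefSeq start (GRCm38.p6, all on the plus strand): chr9:7347124-7347373 for Mmp12, chrX:20869916-20870165 for Timp1 and chr9:7558179-7558428 for Mmp8. Capitals mark matches to TGANTCA, a motif of AP-1, or TTGCNNAA, a motif of C/EBP, on either strand.
Mmp12: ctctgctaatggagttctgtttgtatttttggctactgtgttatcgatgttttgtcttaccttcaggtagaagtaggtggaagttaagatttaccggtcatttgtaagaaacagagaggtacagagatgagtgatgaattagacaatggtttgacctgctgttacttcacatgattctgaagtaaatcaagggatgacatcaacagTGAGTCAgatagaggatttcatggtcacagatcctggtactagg
Timp1: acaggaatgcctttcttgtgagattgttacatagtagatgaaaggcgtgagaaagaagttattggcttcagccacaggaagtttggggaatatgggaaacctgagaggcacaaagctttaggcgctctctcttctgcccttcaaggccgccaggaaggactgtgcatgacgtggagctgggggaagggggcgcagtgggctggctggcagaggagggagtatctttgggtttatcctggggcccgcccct
Mmp8: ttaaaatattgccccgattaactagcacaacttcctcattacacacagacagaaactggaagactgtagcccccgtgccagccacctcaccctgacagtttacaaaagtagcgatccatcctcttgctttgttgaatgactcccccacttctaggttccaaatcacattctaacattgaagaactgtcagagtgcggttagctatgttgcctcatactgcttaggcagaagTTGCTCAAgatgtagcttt
Mmp12 held TGAGTCA with its first base at position -44 from the start, Mmp8 held TTGCTCAA at -19, and Timp1 held neither motif in this window. The other start of Mmp12 held the C/EBP motif on the minus strand at -39, and Mmp14, Timp2 and Timp3 held neither motif. Over 32851 promoters, 6.75% held TGANTCA and 9.56% held TTGCNNAA in the same window. RefSeq promoters were found for 6 of the 9 genes, not for Mmp2, Mmp9 and Mmp19. A match describes letters and not the binding of a factor.

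In BLM against Con, 2 of the 9 genes were called, both higher: Mmp12, the macrophage elastase, and Timp1, an inhibitor that also acts as a growth-promoting signal. Timp1 entered the tests because it was high in BLM, so its call there is a description, and without it 1 of 8 genes was called. Of all genes tested, 4.27% were called in this comparison. The median log2 fold change was 1.36 over the 9 genes, 1.26 without Timp1 and -0.08 over all genes tested. KOBLM against BLM had 0 of 9 called (3.16% of all genes; 0 of 9 had an unadjusted p under 0.05 by edgeR, and DESeq2 called 0 of the 7 to which it gave a p), KO against Con had 1 of 9, Mmp12 (1.44% of all genes), and KOBLM against KO had 2 of 9, Timp1 and Timp3 (1.69% of all genes). The call of Timp1 in KOBLM against KO is a description too, and without Timp1 that comparison had 1 of 8 called. Median log2 fold changes of the 9 genes in these 3 comparisons were 0.02, -0.82 and 1.13, beside 0.10, -0.09 and 0.08 over all genes tested. These 9-gene medians include Timp1, which was at 0 in the KO group. Without Timp1 the median was 0.21 in KOBLM against BLM and -0.68 in KO against Con, and it changed little in KOBLM against KO. The comparisons share groups and are not independent of each other.

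**Figure D1:**
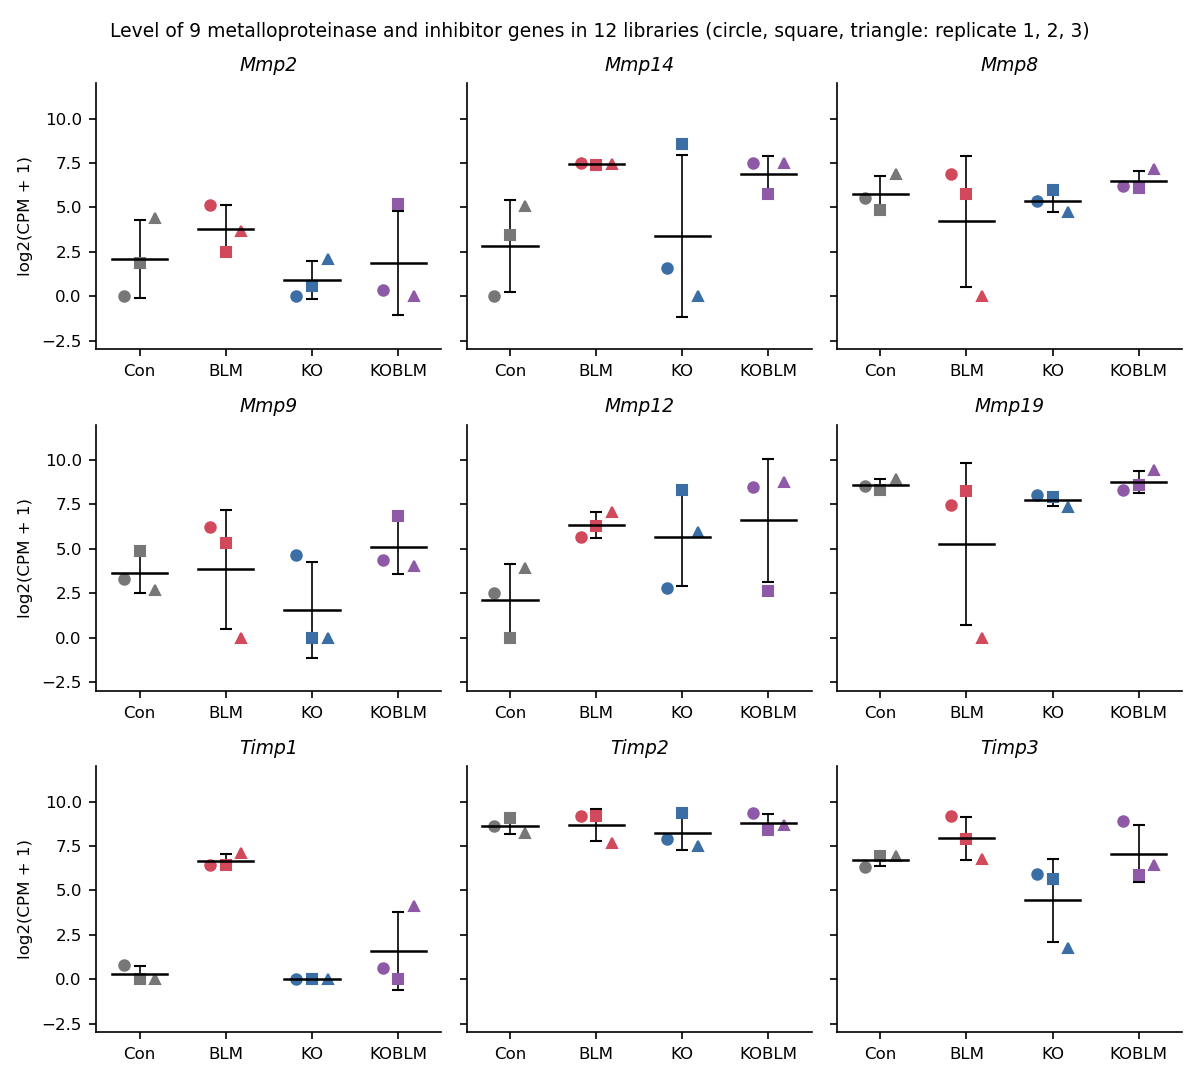
Level of each of the 9 genes on the log2(CPM + 1) scale in the 12 libraries, with 1 point per mouse, the group mean as a bar and its SD as whiskers. Timp1 lay at 85.5 to 137 CPM in the 3 BLM libraries, at 16.3 CPM in KOBLM replicate 3 and under 1 CPM in the other 8, while Timp2 varied least among the 9 genes.

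Mmp14 (chr14:54431612-54445364, plus strand) encodes a membrane-anchored enzyme that activates pro-Mmp2 at the cell surface together with Timp2. It measured 0, 9.92 and 32.1 CPM in Con and 177, 168 and 172 CPM in BLM, from 458 and 4755 counts. All BLM libraries lay above all Con libraries and close to each other. The means differed by 12.3-fold (172 ± 4.81 against 14 ± 16.4 CPM, SD, n = 3 each), yet the log2 fold change of 3.62 ± 2.04 (SE) was not called (edgeR p = 0.0974), and the exact two-sided permutation p was 0.1, the smallest that 3 against 3 can give. With no filter on low counts it was called (log2 fold change 3.62 ± 1.43). KO libraries held 2.01, 376 and 0 CPM and KOBLM libraries 178, 52.7 and 177 CPM. KO replicate 2 was the highest library of all, the other KO libraries were at or near 0, and the comparisons of KO could not separate the groups (edgeR p = 0.135 and exact permutation p = 0.9 against Con, 0.954 and 1 against KOBLM). Without KO replicate 2, Mmp14 was called in KOBLM against KO (log2 fold change 7.06).

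Mmp2 (chr8:92827291-92853420, plus strand), a gelatinase of fibroblasts, was the least abundant of the 9 genes, with a mean of 9.49 CPM over the 12 libraries. It measured 0, 2.59 and 20.3 CPM in Con, 34.7, 4.68 and 11.6 in BLM, 0, 0.493 and 3.24 in KO, and 0.279, 36 and 0 in KOBLM. The groups overlapped in every comparison, and none was called (edgeR p from 0.266 to 0.852). KOBLM replicate 2 gave 382 of the 384 counts of its group, and without it the direction of KOBLM against KO reversed.

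Mmp8 (chr9:7558456-7568485, plus strand), the collagenase of neutrophil granules, measured 45.3, 27.4 and 115 CPM in Con, 115, 52.8 and 0 in BLM, 39.8, 63.1 and 25.8 in KO, and 73, 68 and 140 in KOBLM. KOBLM lay above KO without overlap (2.18-fold, exact permutation p = 0.1), whereas the other pairs overlapped, and no comparison was called (edgeR p from 0.43 to 0.907). Without BLM replicate 3 the log2 fold change of Mmp8 in BLM against Con went from -0.16 to 0.42, and that in KOBLM against BLM from 0.75 to 0.16. Mmp9 (chr2:164940780-164955850, plus strand), the gelatinase of neutrophils and macrophages, measured 9.01, 28.8 and 5.52 CPM in Con, 72.7, 38.9 and 0 in BLM, 24.5, 0 and 0 in KO, and 19.7, 112 and 15.5 in KOBLM. It was not called in any of the 4 comparisons (edgeR p from 0.277 to 0.856), and all pairs of groups overlapped. Without BLM replicate 3 its log2 fold change in BLM against Con went from 1.36 to 1.95, and that in KOBLM against BLM from 0.40 to -0.19. With KO replicate 1 left out, the remaining KO libraries were at 0 and Mmp9 was called in KO against Con and in KOBLM against KO.

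Neutrophil markers also varied between libraries. Their summed level over 11 genes in the files was 102.5, 264.1 and 3521 CPM in Con, 5928, 2159 and 114.8 in BLM, 401.4, 953.7 and 314.5 in KO, and 2241, 1428 and 1406 in KOBLM, with Elane at 0 in 11 libraries and Mpo at 0 in 11. Across the 12 libraries the log2 level of Mmp8 correlated with this sum at r = 0.70 (Spearman rho = 0.78) and that of Mmp9 at r = 0.47 (rho = 0.44), a description over libraries that share depth and group. Con replicate 3 had the highest sum of Con, with the most Mmp8 (115 CPM) and the least Mmp9 (5.52 CPM) of that group. Mmp8 also correlated with the macrophage sum at r = 0.82 (rho = 0.21), and Mmp9 with the sum of endothelial markers at r = 0.68 (rho = 0.50). The part of any of these markers in the levels of Mmp8 and Mmp9 was not tested.

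Mmp12 (chr9:7344381-7369499, plus strand) measured 4.7, 0 and 14.1 CPM in Con, 49.1, 75.6 and 136 in BLM, 5.81, 312 and 60.7 in KO, and 351, 5.08 and 428 in KOBLM. All BLM libraries were above all Con libraries. In KO and KOBLM, 1 library of each lay within the Con range and the others above it. BLM exceeded Con by 13.9-fold (86.9 ± 44.6 against 6.27 ± 7.19 CPM, SD, n = 3 each), with a log2 fold change of 3.79 ± 1.68 (SE), an edgeR p of 0.0407 and an adjusted p of 0.995 (0.293 to 1 over the alternatives), in 3 of 3 libraries. The exact permutation p was 0.1. The call was lost without BLM replicate 3 (log2 fold change 3.30), without Con replicate 1 (3.61), without Con replicate 2 (3.20) and in a fit of these 6 libraries alone.

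KO exceeded Con in the mean level of Mmp12 by 20.1-fold (126 ± 163 CPM), with a log2 fold change of 4.32 ± 1.73 (SE) and an edgeR p of 0.0249 (adjusted p = 1, and 0.302 to 1 over the alternatives), in 2 of 3 libraries, since KO replicate 1 lay below the highest Con library. The exact permutation p was 0.2. Without KO replicate 2 the log2 fold change was 2.44 and the call was lost, as it was without Con replicate 1. KOBLM differed from neither BLM (log2 fold change 1.59 ± 1.54, edgeR p = 0.319, exact permutation p = 0.4) nor KO (1.05 ± 1.52, edgeR and exact permutation p = 0.5) by more than the spread between libraries. C1qa, a complement gene of tissue macrophages, was at most 23.5 CPM in Con, and spanned 13.1 to 1060 CPM in BLM, 66.1 to 396 in KOBLM and 8.45 to 679 in KO, reaching 679 CPM in KO replicate 2, the KO library with the most Mmp12. In BLM it was lowest, at 13.1 CPM, in replicate 3, the BLM library with the most Mmp12. Mmp12 correlated with the macrophage sum at r = -0.15 (rho = 0.00) over the 12 libraries, which share group and depth. Of 16 macrophage markers, 4 were called higher (Msr1, C1qa, C1qb and C1qc) and 3 lower (Mrc1, Itgax and Ear2) in BLM against Con, beside 4.27% of all genes tested. In KO against Con, 2 of the 16 were called higher (Msr1 and C1qa), beside 1.44% of all genes tested. The part of these markers in the Mmp12 differences was not tested.

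Mmp19 (chr10:128790910-128800824, plus strand), an enzyme that cuts basement membrane proteins, had the highest level of the 6 metalloproteinases in 9 of the 12 libraries. It measured 369, 317 and 488 CPM in Con, 178, 306 and 0 in BLM, 256, 243 and 163 in KO, and 311, 378 and 700 in KOBLM. BLM and KO each lay below Con, and KOBLM lay above both BLM and KO, in each case without overlap. Groups did not overlap for 4 of the 9 genes (Timp1 among them) in BLM against Con, where 16.0% of all genes tested did not. In KOBLM against BLM they did not for 2 of 9 (Timp1 and Mmp19, beside 10.8%). Timp1 was tested because it was high in BLM, so its place in both counts is a description. The count was also 2 of 9 in KO against Con (9.09%) and in KOBLM against KO (6.87%). Mmp19 was the only one of the 9 in all 4 sets, and in none was it called by edgeR, with log2 fold changes of -1.28 ± 1.30 (SE, edgeR p = 0.342), 1.52 ± 1.31 (p = 0.264), -0.83 ± 1.29 (p = 0.531) and 1.07 ± 1.29 (p = 0.422), beside an exact permutation p of 0.1 in each. Without BLM replicate 3, BLM against Con came to -0.69 ± 0.44 and KOBLM against BLM to 0.94 ± 0.44, neither called.

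These counts cannot be assigned to Mmp19 alone. The 3′ end of Mmp19 shares 789 exonic bases with Tmem198b, a gene on the opposite strand whose own 3′ end lies there (GENCODE, GRCm38), and whether the counting used strand was not given in the sources used here. Tmem198b had 30912 counts over the 12 libraries and Mmp19 32652, a ratio of 94.7%, and both were at 0 in BLM replicate 3. In the Con libraries Tmem198b had 2875, 2894 and 5546 counts. It followed Mmp19 in each comparison, on the log2 scale by -1.37 in BLM against Con and by 1.07 in KOBLM against KO. Reads of these genes cannot be told apart.

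**Figure D2:**
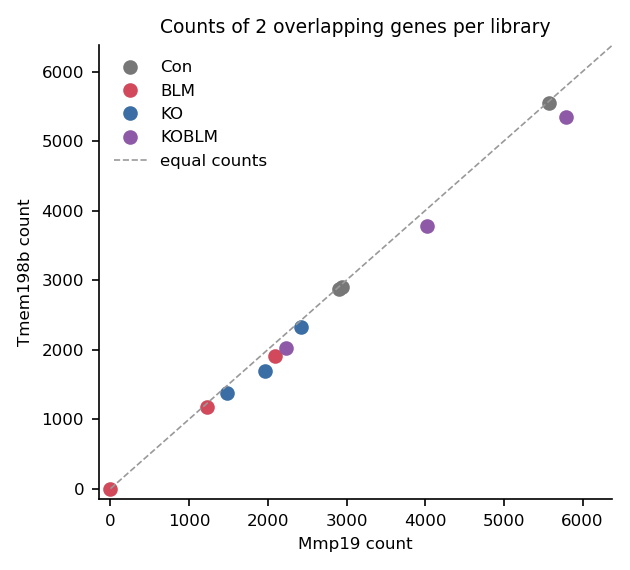
Count of Tmem198b against the count of Mmp19 in each library, with a dashed line of equal counts. The 12 points lie on or just under the line, from 0 in BLM replicate 3 to 5546 counts of Tmem198b in Con replicate 3.

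Timp1 (chrX:20870166-20874735, plus strand) lies inside the Syn1 gene, which is on the opposite strand and shares no exonic base with it. It had 6, 0 and 0 counts in Con, 589, 588 and 1902 in BLM, 0, 0 and 0 in KO, and 4, 0 and 135 in KOBLM. These were 0.761, 0 and 0 CPM in Con, 85.5, 86 and 137 in BLM, and 0.558, 0 and 16.3 in KOBLM. Every BLM library was far above every other library, and 1 KOBLM library gave 135 of the 139 counts of its group. Timp1 passed the filter on low counts through the BLM group, since 1 library outside it was over the cutoff, so a gene tested for this reason had to be high in BLM and its calls against that group are given as a description.

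The mean level of Timp1 was 103 ± 29.5 CPM in BLM and 0.254 ± 0.44 CPM in Con (SD, n = 3 each), the latter under the limit of 3 counts, so BLM was at least 229-fold higher with the Con libraries at 0 set to 3 counts each. The fitted log2 fold change was 8.64 ± 2.62 (SE), and 8.37 without BLM replicate 3. With no filter on low counts it was 8.67 ± 2.30 (edgeR p = 0.000551, exact permutation p = 0.1), with 3 of 3 libraries higher. This too is a description, since the 9 genes were chosen with earlier results of these data known. The adjusted p was 0.995 in the fit with the filter, and 0.192 to 1 over the alternatives. KOBLM lay below BLM in 3 of 3 libraries, by 18.3-fold (5.62 ± 9.26 CPM), and this difference was not called (log2 fold change -4.19 ± 2.12, edgeR p = 0.0715, exact permutation p = 0.1). It was called without KOBLM replicate 3, and with no filter on low counts (log2 fold change -4.27 ± 1.87), both given as a description. KOBLM against KO was called (edgeR p = 0.00902, adjusted p = 1), at least 15.9-fold higher with KO set to 3 counts per library, but the exact permutation p was 0.4, and without KOBLM replicate 3 the call was lost. No fold is given between Con and KO, where Timp1 was at or near 0, and the change with bleomycin could not be compared between genotypes for Timp1.

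The summed level of fibroblast markers was also higher in the BLM libraries. The sum over 12 markers was 2005, 1497 and 915.9 CPM in BLM, 97.2, 286.7 and 462.3 in Con, 56.1, 384.7 and 410.9 in KO, and 583.2, 741.7 and 194.1 in KOBLM, and the BLM values overlapped with no other group. In BLM replicate 3, 8 of the 12 markers were at 0, among them Pdgfra, Pdgfrb, Dcn and Mfap5. The sum of this library came mainly from Col1a1 (438 CPM), Col1a2 (369) and Col3a1 (104). Acta2 was at 5.33 CPM there, under the 11.3 CPM of Con replicate 3. Col1a2, Col3a1 and Acta2, 3 of 10 tested markers, were called higher in BLM against Con, beside 4.27% of all genes tested. Timp1 correlated with the fibroblast sum at r = 0.58 (rho = 0.49), Mmp14 at r = 0.63 (rho = 0.46) and Mmp2 at r = 0.73 (rho = 0.82), over 12 libraries that share group and depth. With the sum of pluripotency genes, which was high in BLM replicate 3 alone, the values were 0.62 (rho = 0.47), 0.48 (rho = 0.64) and 0.02 (rho = -0.03) in the same order. The part of either set of markers in the levels of Timp1, Mmp14 and Mmp2 was not tested.

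**Figure D3:**
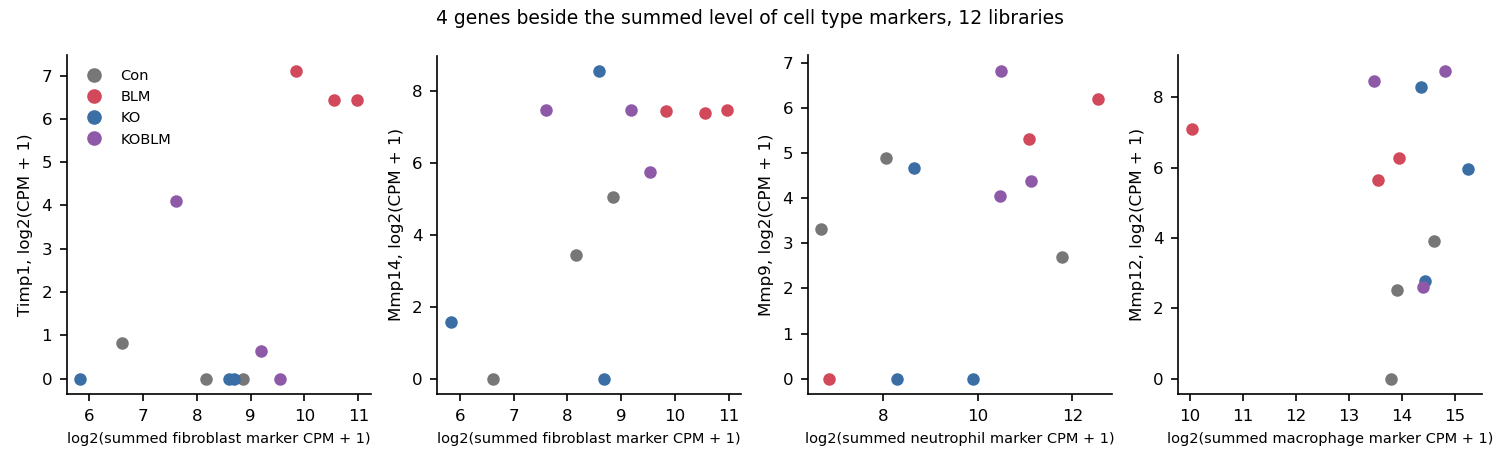
Levels of Timp1, Mmp14, Mmp9 and Mmp12 on the log2(CPM + 1) scale against the summed level of fibroblast, neutrophil or macrophage markers on the same scale, 1 point per library, coloured by group. The 3 BLM libraries lie at the upper right for Timp1 and fibroblast markers, whereas BLM replicate 3 lies apart at the left for Mmp12 and macrophage markers.

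Timp3 (chr10:86300372-86349506, plus strand), an inhibitor that stays bound to the matrix and also blocks ADAM proteases, measured 78.8, 119 and 119 CPM in Con, 570, 233 and 106 in BLM, 58.5, 49.6 and 2.32 in KO, and 469, 56.3 and 85.6 in KOBLM. KO lay below Con and below BLM without overlap, and the other pairs of groups overlapped. KOBLM exceeded KO by 5.53-fold (204 ± 230 against 36.8 ± 30.2 CPM, SD, n = 3 each), with a log2 fold change of 2.47 ± 1.05 (SE) and an edgeR p of 0.0332 (adjusted p = 1; exact permutation p = 0.2). In this called difference the lowest KOBLM library, at 56.3 CPM, lay under the highest KO library, and without KOBLM replicate 1 the log2 fold change was 0.95 and the call was lost. It was also lost without KO replicate 3 (1.91) and in a fit of the KO and KOBLM libraries alone. BLM against Con (1.52 ± 1.01, edgeR p = 0.155, exact permutation p = 0.3) and KO against Con (-1.52 ± 1.01, edgeR p = 0.156, exact permutation p = 0.1) were not called. Timp3 shares 1733 exonic bases with Syn3 on the opposite strand, but Syn3 had 190 counts beside the 15621 of Timp3.

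Endothelial markers also varied between libraries, in part with Timp3. Their sum over 9 genes was 511.8, 1101 and 791.4 CPM in Con, 849.3, 375.8 and 222.3 in BLM, 518.3, 85.2 and 71.0 in KO, and 1868, 339.2 and 356.5 in KOBLM, highest in KOBLM replicate 1, the KOBLM library with the most Timp3. In KO replicate 3, the library with the least Timp3, 6 of the 9 were at 0 (Pecam1, Cldn5, Vwf, Egfl7, Plvap and Emcn). All 9 had a log2 fold change above 0 in KOBLM against KO (median 1.70, beside 0.08 over all genes tested), and 0 of 9 were called, beside 1.69% of all genes tested. In BLM against Con the direction differed from that of Timp3. There 2 of the 9 markers were above 0 (median -1), whereas Timp3 had a log2 fold change of 1.52. Timp3 correlated with this sum at r = 0.77 (rho = 0.78) over 12 libraries that share group and depth. Their part in the Timp3 difference was not tested.

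Timp2 (chr11:118301069-118355740, minus strand), the inhibitor that also takes part in the activation of pro-Mmp2, was the highest of the 3 inhibitors in all 12 libraries. It measured 392, 538 and 293 CPM in Con, 579, 591 and 198 in BLM, 238, 656 and 177 in KO, and 646, 337 and 408 in KOBLM. The groups overlapped throughout and no comparison was called, with log2 fold changes from -0.19 to 0.38 and standard errors of 0.59. Its coefficient of variation over the 12 libraries was 41.8%, the lowest of the 9 genes, against 175% for Timp1.

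**Figure D4:**
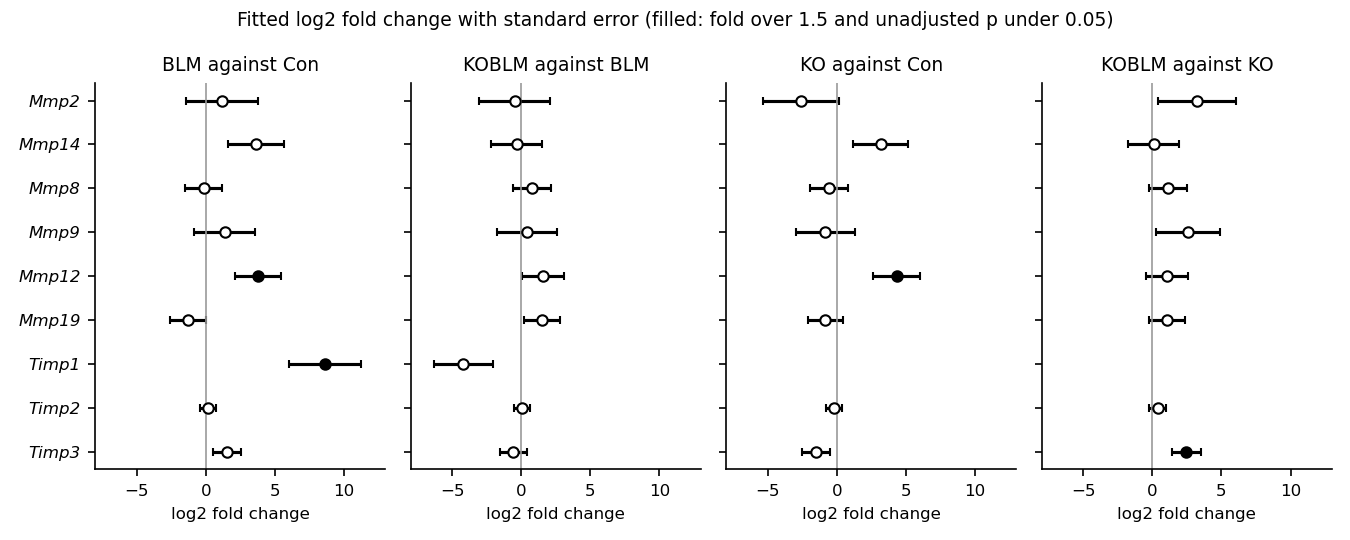
Fitted log2 fold change of each gene, with its standard error as derived from the F test, in the 4 comparisons. Filled points were called (fold over 1.5 and unadjusted p under 0.05), and Timp1 is not drawn where the KO group was at 0 counts, so its call in KOBLM against KO does not appear.

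The test of whether the difference with bleomycin differed between genotypes called 0 of the 8 genes other than Timp1, for which the KO group at 0 leaves no such comparison (2.82% of all genes were called). By edgeR 0 of these 8 had an unadjusted p under 0.05, and DESeq2 called 0 of the 7 to which it gave a p, Mmp14 not among them. The smallest edgeR p was 0.211, for Mmp14, with a log2 value of -3.51 ± 2.68 (SE). For Mmp12 the value was -2.74 ± 2.17 and for Mmp19 2.35 ± 1.83. Without BLM replicate 3, Mmp19 was called (1.76), and without KO replicate 1, Mmp9 was.

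Summed over the 3′ counts, the makeup of the set differed between libraries. The 6 metalloproteinases together came to 385 to 675 CPM in Con, 253 to 994 in KO, 319 to 646 in BLM and 652 to 1460 in KOBLM, and the 3 inhibitors to 412 to 657, 179 to 705, 440 to 1240 and 393 to 1120 CPM in the same order. Timp2 made 71.2% to 83.1% of the inhibitor sum in Con and 44.9% to 65% in BLM, where Timp1 and Timp3 made the rest. The ratio of the metalloproteinase sum to the inhibitor sum was 0.507, 0.71 and 0.725 in BLM and 0.835, 1.66 and 2.87 in KOBLM, which did not overlap. It was 0.908, 0.586 and 1.64 in Con and 1.11, 1.41 and 1.41 in KO, so that KO also lay above BLM without overlap and overlapped with KOBLM. Without Mmp19, whose counts are shared with Tmem198b, it was 0.363, 0.373 and 0.725 in BLM and 0.557, 0.697 and 1.49 in KOBLM, which overlapped. The inhibitor sums of BLM held Timp1 at 85.5, 86 and 137 CPM, a gene tested because it was high in BLM. The separation of BLM from KOBLM and from KO in this ratio is thus a description, and the ratio without Timp1 was not computed. The ratios given compare RNA levels and not the amounts of protein.

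**Figure D5:**
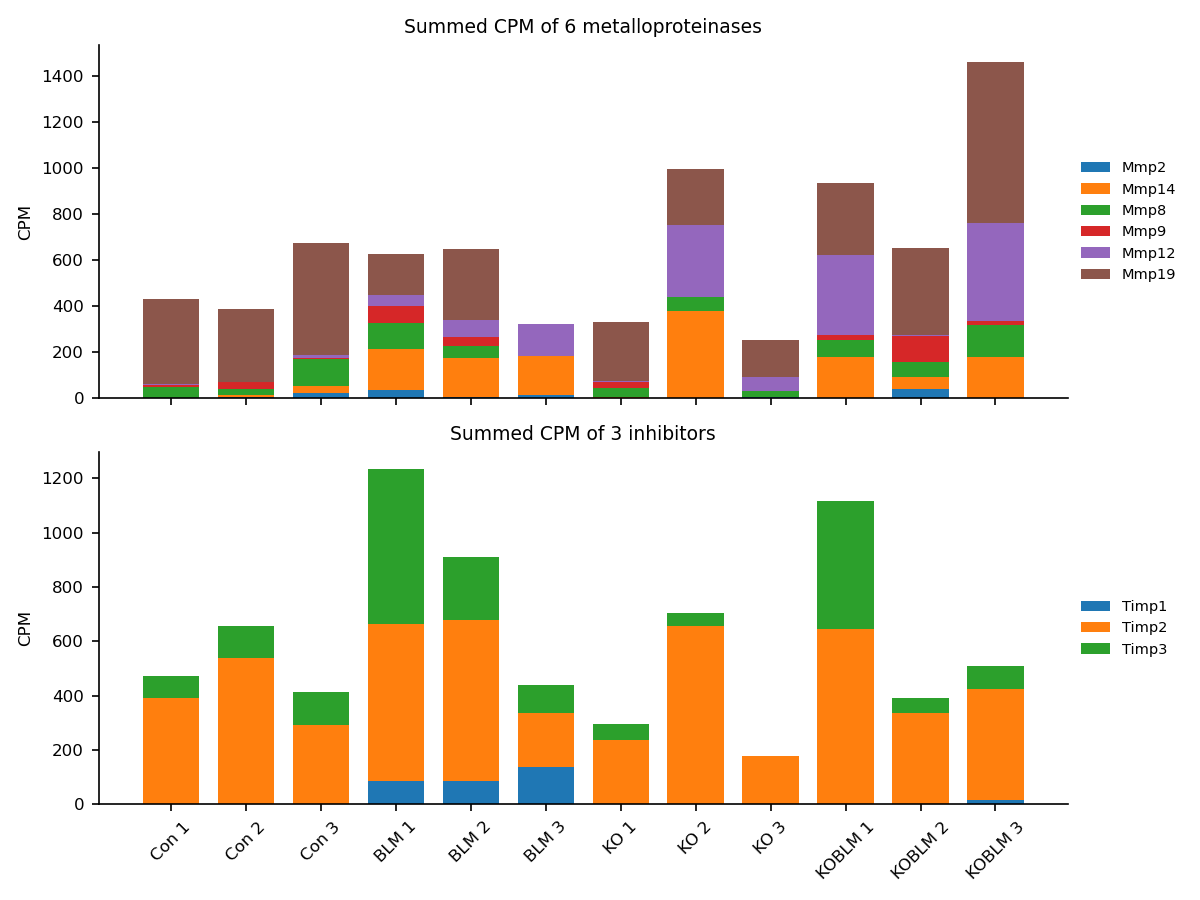
Stacked CPM of the 6 metalloproteinases (upper panel) and the 3 inhibitors (lower panel) in each library. Mmp19 made 72.3% to 86.2% of the upper sum in Con and 0% in BLM replicate 3, and Timp1 is visible in the 3 BLM libraries and in KOBLM replicate 3.

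Genes that act on or beside these enzymes were read from 3 lists. Of 18 other metalloproteinases and Timp4, 7 passed the filter on low counts and 0 were called in any of the 4 comparisons, where 7.65% of all genes tested were called at least once. Their highest levels were those of Mmp24, a membrane-type enzyme (mean 34.5 CPM in Con and 25.9 in BLM), of Mmp3, stromelysin, which reached 54.7 CPM in BLM replicate 1 and was at 0 in BLM replicate 3, and of Mmp23 (mean 9.54 CPM in KOBLM and 1.76 in Con). Of 9 tested activators and surface partners out of 14, Cd63, a tetraspanin that binds Timp1, was called higher in BLM against Con (684 against 158 CPM, log2 fold change 2.11 ± 0.75, edgeR p = 0.0134, exact permutation p = 0.1) and in KO against Con (544 CPM, 1.78 ± 0.74, edgeR p = 0.0302, exact permutation p = 0.2). Its levels were 118, 124 and 233 CPM in Con, 771, 1040 and 237 in BLM, and 266, 1140 and 227 in KO. KO replicate 3 thus lay below Con replicate 3, and BLM replicate 3 lay just above it. Cd44, a surface docking site of Mmp9, was called lower in BLM against Con (-2.23 ± 0.77, edgeR p = 0.0112) and higher in KOBLM against BLM (1.64 ± 0.75, p = 0.046), each with an exact permutation p of 0.1, and both calls held without BLM replicate 3 (-1.68 and 1.09). Its BLM levels were 775, 1290 and 52.2 CPM, with BLM replicate 3 lowest, and each was below every Con and KOBLM library.

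Among 14 tested ADAM and ADAMTS proteases out of 18, 3 were called in at least 1 of the 4 comparisons, beside the same 7.65% of all genes tested. Adam8, a protease of activated leukocytes, measured 0, 8.41 and 0 CPM in Con, 156, 205 and 52.6 in BLM, 2.75, 177 and 42.8 in KO, and 32.7, 14.2 and 148 in KOBLM. It was called higher in the same comparisons as Mmp12, BLM against Con (5.62 ± 1.99, edgeR p = 0.0134, exact permutation p = 0.1) and KO against Con (4.72 ± 1.91, edgeR p = 0.0266, exact permutation p = 0.2), and its interaction was called (-5.80 ± 2.48). Adamts1, which cleaves proteoglycans, measured 14.5, 49.5 and 50.5 CPM in Con, 81.3, 26.2 and 64.8 in BLM, 95.2, 26.5 and 20.3 in KOBLM, and 0, 0.821 and 0 in KO. KO lay below every other library, and Adamts1 was called lower in KO against Con (-7.20 ± 1.73, p = 0.000918) and higher in KOBLM against KO (7.51 ± 1.75, p = 0.000717), each with an exact permutation p of 0.1, and called in the interaction (6.92 ± 2.05). Adamts2, which trims procollagen, was called lower in KOBLM against BLM (1.73 against 43.4 CPM, -4.64 ± 2.08, p = 0.0425, exact permutation p = 0.1), a call lost without BLM replicate 3 (-4.05). All of these p-values are unadjusted ones from edgeR, and the smallest after Benjamini-Hochberg adjustment in these lists was 0.995.

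The genes whose log2 levels were most like each member over the 12 libraries, among 8905 genes, were described by Pearson's r. For Mmp19 they were Tmem198b (0.9997) and Pttg1ip (0.987), for Mmp8 Pira2 (0.980) and Dennd1a (0.980), and for Mmp9 Fmo2 (0.982) and Errfi1 (0.962), all sets in which BLM replicate 3 at 0 weighs heavily. For Timp1 they were Rps14 (0.938) and Tnc (0.924), the gene of tenascin-C, for Mmp14 B4galt6 (0.940) and Tulp2 (0.916), and for Mmp12 Ninj1 (0.865) and Fam20c (0.827). For Timp2 they were Tln1 (0.946) and Irf4 (0.921), for Timp3 Ccnd1 (0.942) and Tcf4 (0.917), and for Mmp2 Stt3b (0.877) and Swi5 (0.866). Among the 9 genes, the highest r was that of Mmp8 and Mmp19 (0.94, with Spearman rho = 0.62, both at 0 in BLM replicate 3), followed by Timp2 and Timp3 (0.66) and by Mmp14 and Mmp12 (0.62).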

How the data were processed

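RNA of sorted cells from 12 mice (4 groups of 3, mapped by the sample titles) was sequenced from the 3′ end. The deposited values used here are raw read counts per gene symbol; per the labels, the authors' processing used Bowtie2, edgeR and the mm10 build, with no versions, and the counter, annotation and strand setting were not given in the sources used here. Of 23282 entries, 35 symbols were listed more than once and their counts were summed, giving 23238 symbols, of which 17480 had a count. Genes were kept by filterByExpr (10 counts in 3 libraries, 15 in all), which left 13054, and tested with edgeR 4.0.16 in R 4.3.3 (TMM, glmQLFit, glmQLFTest) in 1 model of the 4 groups with 8 residual degrees of freedom, all two-sided. The common dispersion was 2.08. P-values measure the spread between these mice. The standard errors given for edgeR were derived from its F test, as the absolute log2 fold change divided by the square root of F. Single genes were also compared by an exact permutation test of mean CPM (scipy 1.17.1). Correlations used log2(CPM + 1). The fits were tested on simulated data. Alternatives were DESeq2 1.42.0, other scaling, no filter, the replicate number as a block, only the groups compared, and each library left out. The 9 genes, the lists and the motifs were chosen with earlier results of these data known. Named genes were all 9, the list genes called in any of the 4 comparisons or otherwise the 3 most abundant, and the 2 most like each of the 9. Gene positions are from GENCODE and promoters from RefSeq.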

Additional observations from a re-analysis of the deposited data

Results flagged for a closer look

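Mmp19 is singled out because its libraries moved in opposite directions in mice with intact p300 and in mice with the ATII deletion: every BLM library lay below every Con library, and every KOBLM library lay above every KO library. Of all genes tested, 16.0% did not overlap in BLM against Con and 6.87% did not in KOBLM against KO. The share that did so in opposite directions is not given. The test of the difference itself gave a log2 value of 2.35 by edgeR and passed neither the unadjusted threshold nor adjustment (adjusted p = 1). Over the 12 fits that left out 1 library the value ran from 1.76 to 3.21. Mmp19 passed the unadjusted threshold only without BLM replicate 3, a fit in which 0 genes passed after adjustment. Its counts are shared with Tmem198b, whose own value for this test was 2.44. BLM replicate 3 had 0 counts of both genes.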

How the results depend on the processing

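Calls among the 9 genes moved with most choices. In BLM against Con (2 called), DESeq2 called 1, as did a model without the other groups, no low-count filter 3 (adding Mmp14), an adjusted p threshold 0, and leaving out 1 library 1 to 2. In KOBLM against BLM (0 called), the fit with no low-count filter called 1 (Timp1), and leaving out 1 library gave 0 to 1. In KO against Con (1 called), no filter, only the groups compared, and the replicate block called 2 each (adding Mmp14, Mmp19 and Timp3 in turn), an adjusted threshold 0, and leaving out 1 library 0 to 2. In KOBLM against KO (2 called), DESeq2 called 1, only the groups compared 1 (Mmp19, with Timp1 not tested there), an adjusted threshold 0, and leaving out 1 library 1 to 3. The interaction (0 called) gave 0 to 1. DESeq2 gave no p for Timp1 and Mmp14 in these fits. The cause of the other changes was not tested.

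Of 205 log2 fold changes under other settings, 195 kept direction and side of the threshold. The exceptions in direction were Mmp9 in BLM against Con, at -0.58 with the replicate block, and Timp2 in KOBLM against BLM, at -0.012 with library size alone. With 1 library left out, 178 of 216 kept both. Ranges that crossed 0 were, in BLM against Con, Mmp8 -1.24 to 0.62 and Timp2 -0.073 to 0.52, and in KOBLM against BLM, Mmp2 -6.81 to 0.57, Mmp14 -0.58 to 0.046, Mmp9 -1.08 to 1.33, Timp2 -0.34 to 0.26 and Timp3 -2.05 to 0.27. In KO against Con they were Mmp14 -3.79 to 4.65, Mmp8 -0.91 to 0.24, Mmp9 -10.05 to 0.17 and Timp2 -0.95 to 0.13, and in KOBLM against KO, Mmp2 -3.06 to 5.59 and Mmp14 -0.47 to 7.06. Library size alone moved the median of all genes in KO against Con from -0.09 to -0.21.

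Over all genes tested, same-numbered libraries did not deviate together from their group means (r from -0.135 to 0.087). With 3 libraries per group this cannot decide whether the numbers pair the mice, and the main fit left them unpaired. With the replicate block, genes called over all tested were 394 in BLM against Con (558 without it), 262 in KOBLM against BLM (413), 100 in KO against Con (188) and 100 in KOBLM against KO (221). DESeq2 called 947, 755, 374 and 460, and 625 in the interaction (368). No filter gave 645 in KOBLM against BLM and 706 in the interaction, and only the groups compared gave 149 in KOBLM against BLM and 138 in KOBLM against KO. Leaving out 1 library gave 292 to 767, 236 to 471, 88 to 446, 105 to 402 and 332 to 672. At these depths, Timp1 in Con and KO was at or near the limit of 3 counts.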
